A study of Arabidopsis thaliana with 9 samples.

Results

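The heat shock chaperones and heat shock factors described here are 10 loci of Arabidopsis thaliana, chosen by name, matched by locus identifier, out of 32833 genes listed for leaves of 9 week old plants of the natural accession Shahdara. They are HSP90.1, HSP101, the small heat shock proteins HSP17.6A, HSP17.6II, HSP17.4, HSP18.2, HSP21 and HSP22, and the transcription factors HSFA2 and HSFA7A. The 9 libraries, which the labels call biological replicates, formed 3 groups of 3: a Shahdara line labelled IAA26 stable (stabilised below), a Shahdara line labelled IAA26 knockout (knockout-labelled below) and wild type Shahdara, which the labels name as the control. IAA26 is an Aux/IAA repressor of auxin-responsive transcription, and the design text sets both lines against the wild type for development and defence. The sources used here do not give the alleles, the promoter of any transgene, the number of independent lines or any heat treatment. Nothing beyond the words biological replicate says that the libraries came from separate plants, so p-values measure the spread between these libraries.

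Heat shock proteins are molecular chaperones that keep other proteins from aggregating or help them refold. In plants their genes are switched on within minutes of heat by heat shock factors (HSFs), which bind heat shock elements, runs of the units GAA and TTC in alternating orientation upstream of the gene. In leaves without heat most of the inducible members are known to be barely transcribed, while relatives such as the cytosolic HSC70 proteins are made all the time.

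Exon reads summed to 28585976 to 36684424 per library in the stabilised line, 33066761 to 36547078 in knockout-labelled leaves and 34325905 to 45346301 in the wild type. Levels of the targeted gene, IAA26 (AT3G16500), were 9.81 to 12.7 RPKM (reads scaled by exon length and library size) in the stabilised line, 12.4 to 17.2 RPKM in knockout-labelled leaves and 17.5 to 20.3 RPKM in the wild type, so IAA26 reads were present in every library labelled knockout (log2 fold change against wild type -0.40, SE 0.11, edgeR adjusted p = 0.120). In stabilised against wild type IAA26 fell (log2 fold change -0.70, SE 0.12, edgeR adjusted p = 0.0112), and the groups did not overlap. The summed level of 8 leaf mesophyll genes was 11949 to 25726 RPKM in the stabilised line, 13375 to 19131 RPKM in knockout-labelled leaves and 16836 to 19279 RPKM in the wild type, the lowest being stabilised replicate 1. Single genes in this sum went different ways. RCA had 3858, 3638 and 3867 RPKM in stabilised libraries and 6238, 5884 and 7235 RPKM in wild type libraries. GAPA also lay lower in every stabilised than in every wild type library. The other genes of the sum overlapped between those groups. Among them LHCB1.3 had 3763, 11730 and 10419 RPKM in stabilised libraries and 4857, 5144 and 2683 RPKM in wild type libraries. The 4 flower genes summed to 3.73 to 8.75 RPKM in the stabilised line, 5.33 to 23.4 RPKM in knockout-labelled leaves and 3.43 to 5.36 RPKM in the wild type, with the highest value in knockout-labelled replicate 3. Seed genes stood at 0 except for 0.0832 RPKM in stabilised replicate 2, and root hair genes did not pass 0.0353 RPKM. The part of these marker differences in the results below was not tested.

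The upstream sequences of 4 loci are shown because these are the tested loci with a heat shock element within 250 bases before the annotated gene start. A 2-unit element was read as GAANNTTC or TTCNNGAA; both patterns read the same on either strand, and overlapping matches were counted separately. A 3-unit element adds a further unit 2 bases on, in alternating orientation, so that each 3-unit match also contains 2-unit matches. The stretches below are 100 bases of the Columbia reference (RefSeq TAIR10.1), written 5′ to 3′ on the gene's strand with matched elements in capitals; the sequence of Shahdara itself was not used here. They lie at chr5:3884839-3884938 (minus strand) for HSP17.6A, chr3:16984868-16984967 (minus strand) for HSP17.4, chr2:11135511-11135610 (plus strand) for HSFA2 and chr3:19264974-19265073 (plus strand) for HSFA7A.
HSP17.6A: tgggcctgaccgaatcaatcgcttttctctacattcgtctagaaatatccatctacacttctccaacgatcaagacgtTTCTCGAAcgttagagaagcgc
HSP17.4: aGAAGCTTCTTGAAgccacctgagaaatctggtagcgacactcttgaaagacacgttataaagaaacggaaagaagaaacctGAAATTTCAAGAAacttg
HSFA2: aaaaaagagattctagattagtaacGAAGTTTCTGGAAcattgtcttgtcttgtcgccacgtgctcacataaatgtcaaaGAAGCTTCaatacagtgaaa
HSFA7A: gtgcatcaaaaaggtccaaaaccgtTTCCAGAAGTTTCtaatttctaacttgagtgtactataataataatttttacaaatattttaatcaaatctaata
HSP17.6A shows a single 2-unit element that ends 15 bases before the gene start, whereas HSP17.4 shows 2 separate 3-unit runs, the nearer one ending 6 bases before the start. HSFA2 has a 3-unit run 88 to 76 bases before its start and a 2-unit element nearer to it. HSFA7A has a 3-unit run 142 to 130 bases before the start, and a further one 192 to 180 bases before it that lies upstream of the stretch shown.

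Within 250 bases before the annotated start, 5 of the 10 loci held a 2-unit element, against 16.2% of 27438 protein-coding genes, and 3 of the 10 held a 3-unit element (HSP17.4, HSFA2 and HSFA7A), against 0.386% of those genes. The annotated distance from gene start to coding start ran from 0 bases for HSP90.1 to 507 bases for HSP101, so the same search was repeated over 500 bases before the coding start, a window added after the first counts were seen. There all 10 loci held a 2-unit element, against 33.9% of all genes, and 6 held a 3-unit element, against 1.20% of all genes. For HSP101 this window lay wholly inside the annotated gene, so its match was not upstream of the gene start. Another 68 heat shock genes were listed by family. Within 250 bases before the annotated start, 16 of the 68 held a 2-unit element and 4 a 3-unit element. The shares of all protein-coding genes there were 16.2% and 0.386%, as given above. In the window before the coding start, 45 of the 68 held a 2-unit element and 14 a 3-unit element. These matches are letters in a window and not measured binding sites.

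Of the 10 loci, 7 had enough reads to be tested; HSP17.6II, HSP21 and HSP22 did not pass the filter on low counts. Between loci, the highest mean level in every group was that of HSP90.1, the heat-inducible cytosolic HSP90, at 7.01 ± 3.91 RPKM in the stabilised line, 19.4 ± 5.46 RPKM in knockout-labelled leaves and 27.6 ± 11.5 RPKM in the wild type (SD, n = 3 each). It stood above 55.7% of genes with reads in the stabilised line, 76.5% in knockout-labelled leaves and 84.1% in the wild type. Below it in the wild type came HSP101, HSFA7A, HSFA2, HSP17.6A, HSP17.4 and HSP18.2, with means of 5.87, 4.50, 3.68, 2.90, 1.86 and 0.909 RPKM, and each neighbouring pair in that order overlapped in its range over the 3 wild type libraries except HSP90.1 and HSP101. In the stabilised line the order below HSP90.1 was HSFA7A, HSP101, HSP18.2, HSP17.4, HSFA2 and HSP17.6A, with means of 3.07, 1.78, 0.935, 0.568, 0.453 and 0.266 RPKM.

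**Figure D1:**
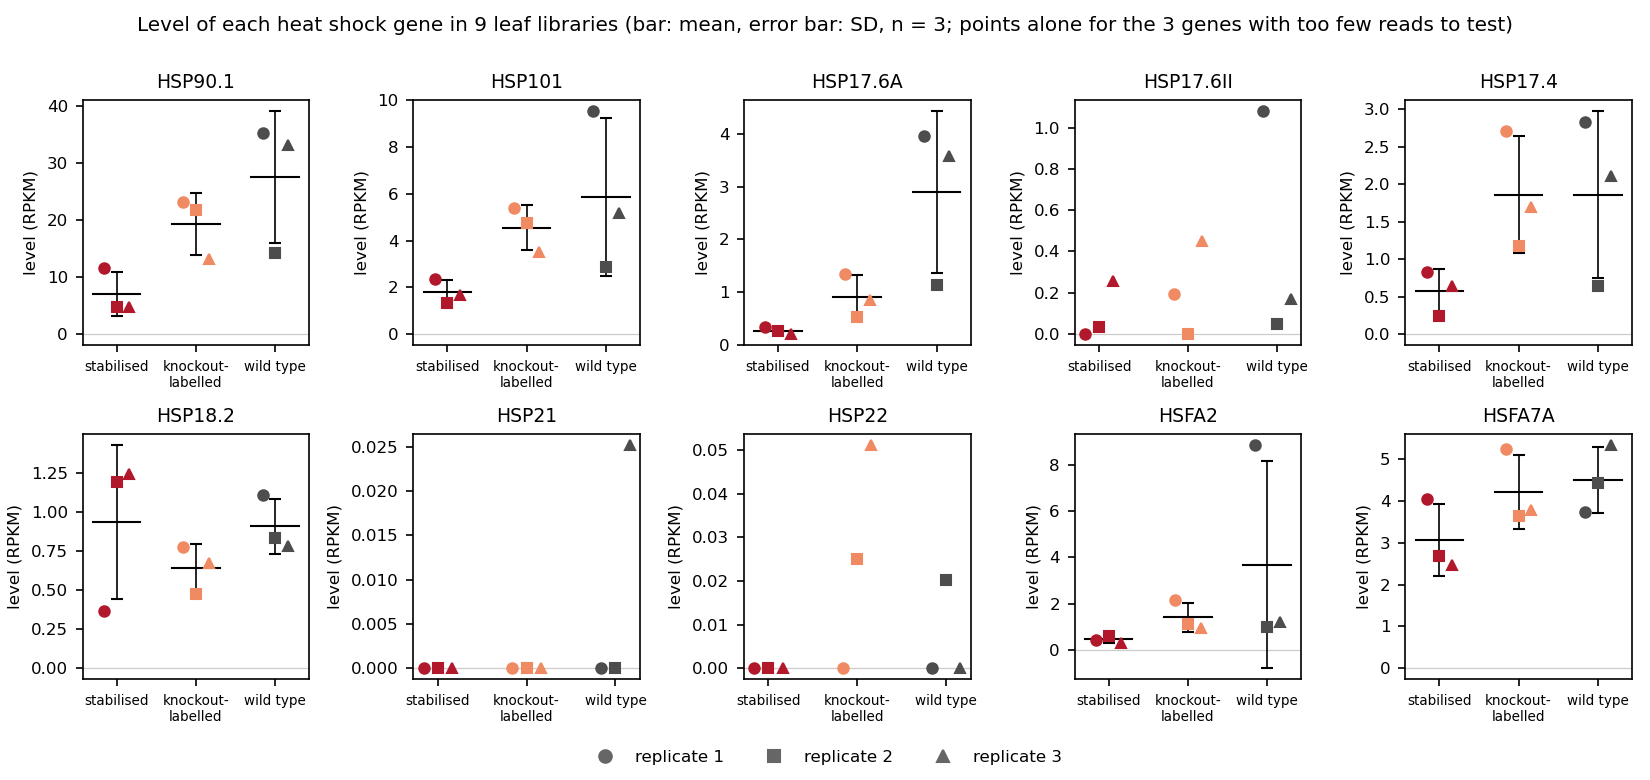
Level in RPKM (vertical axes, linear, each with its own range) of the 10 loci in the stabilised, knockout-labelled and wild type libraries. Points are libraries, shaped by replicate number, and bars show mean and SD for the tested loci. HSP17.6II, HSP21 and HSP22 have points alone. All 3 stabilised libraries lie below all 3 wild type libraries for HSP90.1, HSP101, HSP17.6A and HSFA2, and wild type replicate 1 stands at 8.83 RPKM for HSFA2 against 0.978 and 1.23 RPKM in the other wild type libraries.

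In the stabilised line against the wild type, the transcripts of 3 of the 7 tested chaperone and HSF loci fell: HSP90.1, HSP101 and HSP17.6A. The remaining 4 did not pass the threshold, an adjusted p of 0.05 (edgeR quasi-likelihood fit, adjusted by Benjamini and Hochberg's method over 19409 genes). Of all genes tested, 3.78% were called lower and 5.09% higher in this comparison. An unadjusted p under 0.05 was found for 5 of the 7 loci and for 27.1% of all genes. Of the 7 fold changes 6 were below 0, and their median was -1.66 on the log2 scale, against 0.0092 over all genes tested. In whole leaves, fewer cells of a type and less RNA per cell cannot be told apart.

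HSP90.1 (AT5G52640, chromosome 5, 21352557 to 21355147, plus strand) had 11.5, 4.81 and 4.70 RPKM in stabilised libraries, 23.1, 21.8 and 13.1 RPKM in knockout-labelled libraries and 35.3, 14.3 and 33.1 RPKM in wild type libraries. Every stabilised value lay below every knockout-labelled and wild type value, and those of the knockout-labelled line and the wild type overlapped. The gene fell 3.81-fold in stabilised against wild type (log2 fold change -1.93, SE 0.43, edgeR adjusted p = 0.0318). Against the knockout-labelled line the log2 difference was -1.30 (SE 0.43, edgeR adjusted p = 0.0926).

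HSP101 (AT1G74310, listed as CLPB1, chromosome 1, 27936508 to 27940369, minus strand) encodes the cytosolic disaggregase that acquired heat tolerance depends on. Its levels were 2.35, 1.33 and 1.66 RPKM in the stabilised line, 5.41, 4.77 and 3.50 RPKM in knockout-labelled leaves and 9.54, 2.87 and 5.19 RPKM in the wild type. Again the 3 stabilised libraries were the lowest of the 9, and wild type replicate 2 lay below all knockout-labelled libraries. The fall in stabilised against wild type was 3.16-fold (log2 fold change -1.66, SE 0.40, edgeR adjusted p = 0.0418), and against the knockout-labelled line the value was -1.18 (SE 0.40, edgeR adjusted p = 0.100).

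HSP17.6A (AT5G12030, listed as HSP17.7, chromosome 5, 3883957 to 3884838, minus strand), a class II small heat shock protein of the cytosol, gave the largest fold change of the 7 in stabilised against wild type. It had 9, 8 and 7 exon reads in stabilised libraries, 42, 18 and 28 in knockout-labelled libraries and 129, 48 and 128 in wild type libraries. Per length these were 0.333, 0.265 and 0.201 RPKM in the stabilised line, 1.34, 0.527 and 0.839 RPKM in knockout-labelled leaves and 3.97, 1.14 and 3.59 RPKM in the wild type. The stabilised libraries did not overlap with either other group, and knockout-labelled replicate 1 lay above wild type replicate 2. The fall in stabilised against wild type was 10.3-fold (log2 fold change -3.36, SE 0.58, edgeR adjusted p = 0.0129), on 24 reads in the whole stabilised group. All its stabilised counts were under 10, the minimum count of the filter, and the locus passed that filter through its reads in the other groups.

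The 3 calls depended on which libraries were in the fit. None of the 3 passed without stabilised replicate 2 or without stabilised replicate 3, where HSP17.6A had edgeR adjusted p values of 0.0576 and 0.0524. HSP17.6A alone passed without knockout-labelled replicate 1 or 2, without wild type replicate 1 or 3, or with only the 2 groups compared in the fit. Without knockout-labelled replicate 3, HSP90.1 and HSP17.6A passed and HSP101 did not (edgeR adjusted p = 0.0563). Without wild type replicate 1 the log2 fold changes were -1.70 for HSP90.1 and -1.10 for HSP101.

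HSFA2 (AT2G26150, chromosome 2, 11135624 to 11137792, plus strand), the heat-induced factor that sustains chaperone transcription after heat, had 26, 40 and 21 reads in stabilised libraries, 142, 82 and 67 in knockout-labelled libraries and 610, 88 and 93 in wild type libraries. In RPKM these were 0.452, 0.623 and 0.284 in the stabilised line, 2.14, 1.13 and 0.944 in knockout-labelled leaves and 8.83, 0.978 and 1.23 in the wild type. The stabilised libraries lay below all others, and wild type replicate 1 was 9.03 times the lowest wild type library. The log2 fold change in stabilised against wild type was -2.94 (SE 0.89, edgeR adjusted p = 0.0772), which did not pass the threshold, and it was -1.18 without wild type replicate 1. HSFA7A (AT3G51910, chromosome 3, 19265141 to 19266806, plus strand), another heat-induced class A factor, had 4.06, 2.70 and 2.47 RPKM in the stabilised line, 5.24, 3.63 and 3.78 RPKM in knockout-labelled leaves and 3.75, 4.43 and 5.34 RPKM in the wild type. Its groups overlapped and its log2 fold change in stabilised against wild type was -0.48 (SE 0.22, edgeR adjusted p = 0.204). Only 1 of the 1564 exon reads of HSFA7A crossed an exon junction, as described below, so the level of its spliced transcript is uncertain.

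The 2 class I small heat shock proteins of the cytosol did not pass the threshold in stabilised against wild type. HSP17.4 (AT3G46230, listed as HSP17.4A, chromosome 3, 16984118 to 16984867, minus strand) had 0.827, 0.234 and 0.642 RPKM in the stabilised line, 2.71, 1.17 and 1.69 RPKM in knockout-labelled leaves and 2.82, 0.640 and 2.11 RPKM in the wild type. Wild type replicate 2 lay among the stabilised values, and the log2 fold change of -1.64 (SE 0.63, edgeR adjusted p = 0.140) did not pass. Only 145 of its 363 reads were unique to the gene, so its level is uncertain. HSP18.2 (AT5G59720, listed as HSP18.1, chromosome 5, 24062323 to 24063300, plus strand) had 0.367, 1.20 and 1.24 RPKM in the stabilised line, 0.780, 0.476 and 0.675 RPKM in knockout-labelled leaves and 1.11, 0.832 and 0.784 RPKM in the wild type. Its stabilised libraries held both the lowest and the highest value of all 9, and the log2 fold change was 0.16 (SE 0.47, edgeR adjusted p = 0.855), with a sign that changed when stabilised replicate 2 or 3 was left out.

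The 3 remaining loci had too few reads to be tested. HSP17.6II (AT5G12020, listed as HSP17.6, chromosome 5, 3882231 to 3883111, minus strand), a class II protein like its neighbour HSP17.6A 845 bases away on the same strand, had 0, 1 and 9 reads in stabilised libraries, 6, 0 and 15 in knockout-labelled libraries and 35, 2 and 6 in wild type libraries. HSP22 (AT4G10250, listed as HSP22.0, chromosome 4, 6370338 to 6371372, plus strand), of the endoplasmic reticulum, had no read in stabilised libraries, 0, 1 and 2 reads in knockout-labelled libraries and 0, 1 and 0 in wild type libraries. HSP21 (AT4G27670, chromosome 4, 13818825 to 13819971, minus strand), of the chloroplast, had a single read, in wild type replicate 3. A count of 0 allows up to 3 reads, which for these genes corresponds to 0.0637 to 0.111 RPKM depending on gene and library, for counting error only. No group difference was tested for these loci; HSP17.6II was above that limit in some libraries of each group, with its highest count in wild type replicate 1.

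In the knockout-labelled line against the wild type, none of the 7 tested loci passed edgeR's threshold, 1 had an unadjusted p under 0.05 (HSP17.6A), as 19.6% of all genes did, and DESeq2 called that locus alone (adjusted p = 0.0259). Of all genes, 0.732% were called lower and 0.927% higher; the split was 180 higher and 142 lower, and 204 higher and 94 lower with scaling by library totals alone, which moved the median of all genes to 0.12. All 7 fold changes were below 0, with a median of -0.60, except that HSP17.4 turned to 0.002 under that scaling. Over all genes DESeq2 called 994 lower and 784 higher in this comparison. HSP17.6A had a log2 fold change of -1.79 (SE 0.52, edgeR adjusted p = 0.120), HSFA2 -1.51 (SE 0.82), HSP90.1 -0.63 (SE 0.42), HSP18.2 -0.60 (SE 0.48), HSP101 -0.48 (SE 0.39), HSFA7A -0.21 (SE 0.22) and HSP17.4 -0.11 (SE 0.59). Without wild type replicate 1 the signs of HSP101, HSFA2 and HSP17.4 turned, to 0.069, 0.239 and 0.337. Only HSP18.2 had every knockout-labelled library below every wild type library, which 14.3% of all genes did.

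In the stabilised line against the knockout-labelled line, none of the 7 passed edgeR's threshold, 4 had an unadjusted p under 0.05, as 30.6% of all genes did, and DESeq2 called HSP90.1 and HSP101 lower (adjusted p = 0.0174 and 0.0279). Of all genes, 2.09% were called lower and 4.87% higher; the split was 945 higher and 406 lower, and 635 higher and 876 lower with scaling by library totals alone, which moved the median of all genes to -0.19. The median over the 7 was -1.30, and 6 were below 0 under both scalings. Over all genes DESeq2 called 1433 lower and 2208 higher in this comparison. All stabilised libraries lay below all knockout-labelled libraries for HSP90.1, HSP101, HSP17.6A, HSP17.4 and HSFA2, as they did for 15.3% of all genes. Against the wild type the stabilised libraries lay below for 4 loci, where 14.2% of all genes did. HSP17.6A gave -1.57 (SE 0.58), HSP17.4 -1.54 (SE 0.63), HSFA2 -1.43 (SE 0.87), HSFA7A -0.28 (SE 0.22) and HSP18.2 0.77 (SE 0.48). The 3 comparisons share libraries, so their values are not independent of each other.

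**Figure D2:**
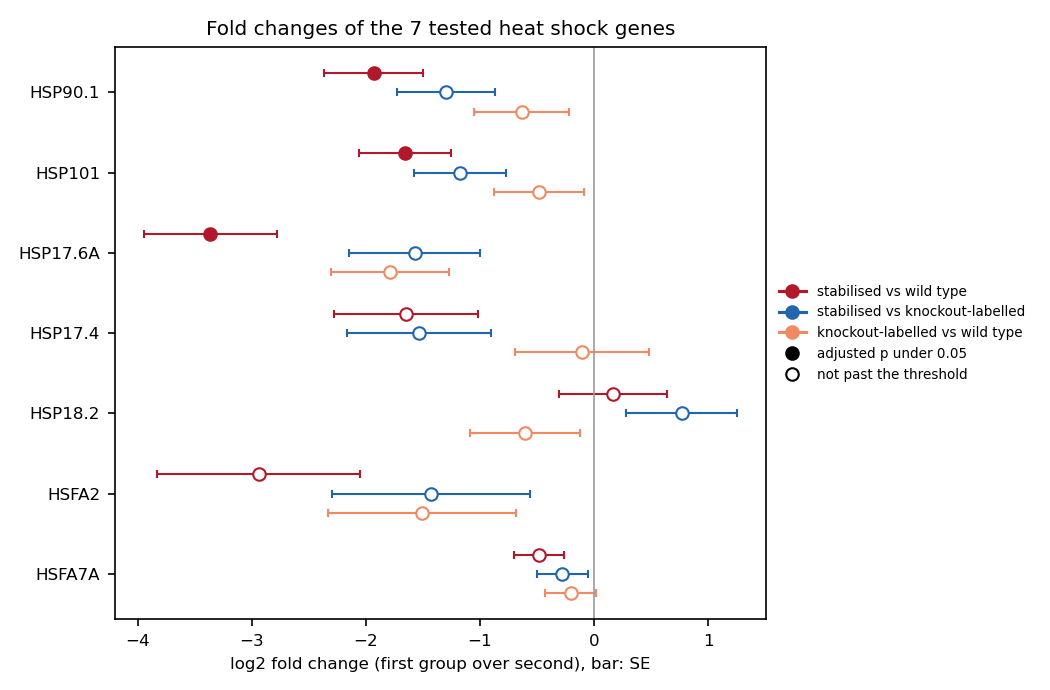
Log2 fold change (horizontal axis, first group over second) of the 7 tested loci in the 3 comparisons, with SE bars; filled points passed an edgeR adjusted p of 0.05. The filled points are HSP90.1 at -1.93, HSP101 at -1.66 and HSP17.6A at -3.36, all in stabilised against wild type.

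A wider set of 68 heat shock genes, listed by family, was read beside the 10 loci; 60 had enough reads to be tested. In stabilised against wild type 13 of the 60 fell and 3 rose, with a median of -0.49, and 49 were below 0. Of all 19409 genes tested, 3.78% were called lower and 5.09% higher in this comparison, and 9505 were below 0. The same shares stand beside the counts of the single lists below. The count of 16 called was 4 without stabilised replicate 2, wild type replicate 1 or wild type replicate 3, 5 without stabilised replicate 3, 7 without knockout-labelled replicate 1 or 2, 10 without knockout-labelled replicate 3 and 26 without stabilised replicate 1.

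Of 8 tested members of the other HSP90 and HSP100 list, 4 fell and none rose, with a median of -0.81. CLPB3, the chloroplast relative of HSP101, had 40.1 ± 8.79 RPKM in the stabilised line and 91.3 ± 12.5 RPKM in the wild type (SD, n = 3 each; log2 fold change -1.12, SE 0.16, edgeR adjusted p = 0.00630). The chloroplast HSP90.5 fell by 0.82, the mitochondrial HSP90.6 by 0.64 and the cytosolic HSP90.2 by 0.98 on the log2 scale (edgeR adjusted p = 0.0280, 0.0279 and 0.0494). Of 12 tested HSP70 and BiP genes 2 fell, with a list median of -0.47. HSP70-4 (AT3G12580, listed as MED37C), a heat-inducible cytosolic HSP70, had 87.1, 32.1 and 33.0 RPKM in stabilised libraries and 333, 135 and 222 RPKM in wild type libraries (log2 fold change -2.14, SE 0.45, edgeR adjusted p = 0.0262). All its stabilised values lay below its wild type values. The mitochondrial MTHSC70-2 fell by 1.11 on the log2 scale (edgeR adjusted p = 0.0414).

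Of 9 co-chaperones tested, 4 fell and none rose, with a median of -0.63. The fold changes were below 0 for 7 of them and above 0 for 2. The larger of the 2 was that of BAG6, which did not pass the threshold (log2 fold change 1.08, SE 0.29, edgeR adjusted p = 0.0554). Every stabilised library lay above every wild type library for BAG6. HOP3, which links HSP70 to HSP90, had 0.535 ± 0.132 RPKM in the stabilised line and 1.88 ± 0.659 RPKM in the wild type (SD, n = 3 each; log2 fold change -1.74, SE 0.29, edgeR adjusted p = 0.0118). The DnaJ proteins ATJ3 and ATJ2 fell by 0.63 and 0.51, and FES1A, a cofactor of cytosolic HSP70, by 1.07 on the log2 scale (edgeR adjusted p = 0.0437, 0.0498 and 0.0480). Of 8 other small heat shock proteins tested 2 fell, with a median of -1.08: HSP15.7, a peroxisomal protein, by 1.12 and HSP17.6B, a class I protein, by 1.43 on the log2 scale (edgeR adjusted p = 0.0251 and 0.0443). HSP17.8 had no read in any library.

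Of 16 other HSFs tested 2 rose and none fell, with a median of -0.08. HSFA8 had 44.3, 16.7 and 18.23 RPKM in stabilised libraries and 4.39, 5.97 and 8.65 RPKM in wild type libraries (log2 fold change 2.104, SE 0.39, edgeR adjusted p = 0.0162). HSFA1B, one of the HSFA1 factors that start the heat response, had 16.5, 14.6 and 11.4 RPKM in stabilised libraries and 6.95, 8.03 and 8.43 RPKM in wild type libraries (log2 fold change 0.94, SE 0.13, edgeR adjusted p = 0.00594). Neither gene's groups overlapped. Of 5 regulators around the HSFs 1 rose and 1 fell, with a median of -0.56. DREB2A, a drought and heat transcription factor, rose (7.73, 6.85 and 2.96 RPKM in stabilised libraries, 1.56, 2.02 and 1.48 RPKM in wild type libraries; log2 fold change 1.86, SE 0.37, edgeR adjusted p = 0.0224). The co-chaperone ROF1, which binds HSP90, fell by 0.56 on the log2 scale (edgeR adjusted p = 0.0347). Of the 2 other heat-induced genes tested none passed, the nearer being GOLS1, a galactinol synthase, at -1.01 (SE 0.26, edgeR adjusted p = 0.0507).

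**Figure D3:**
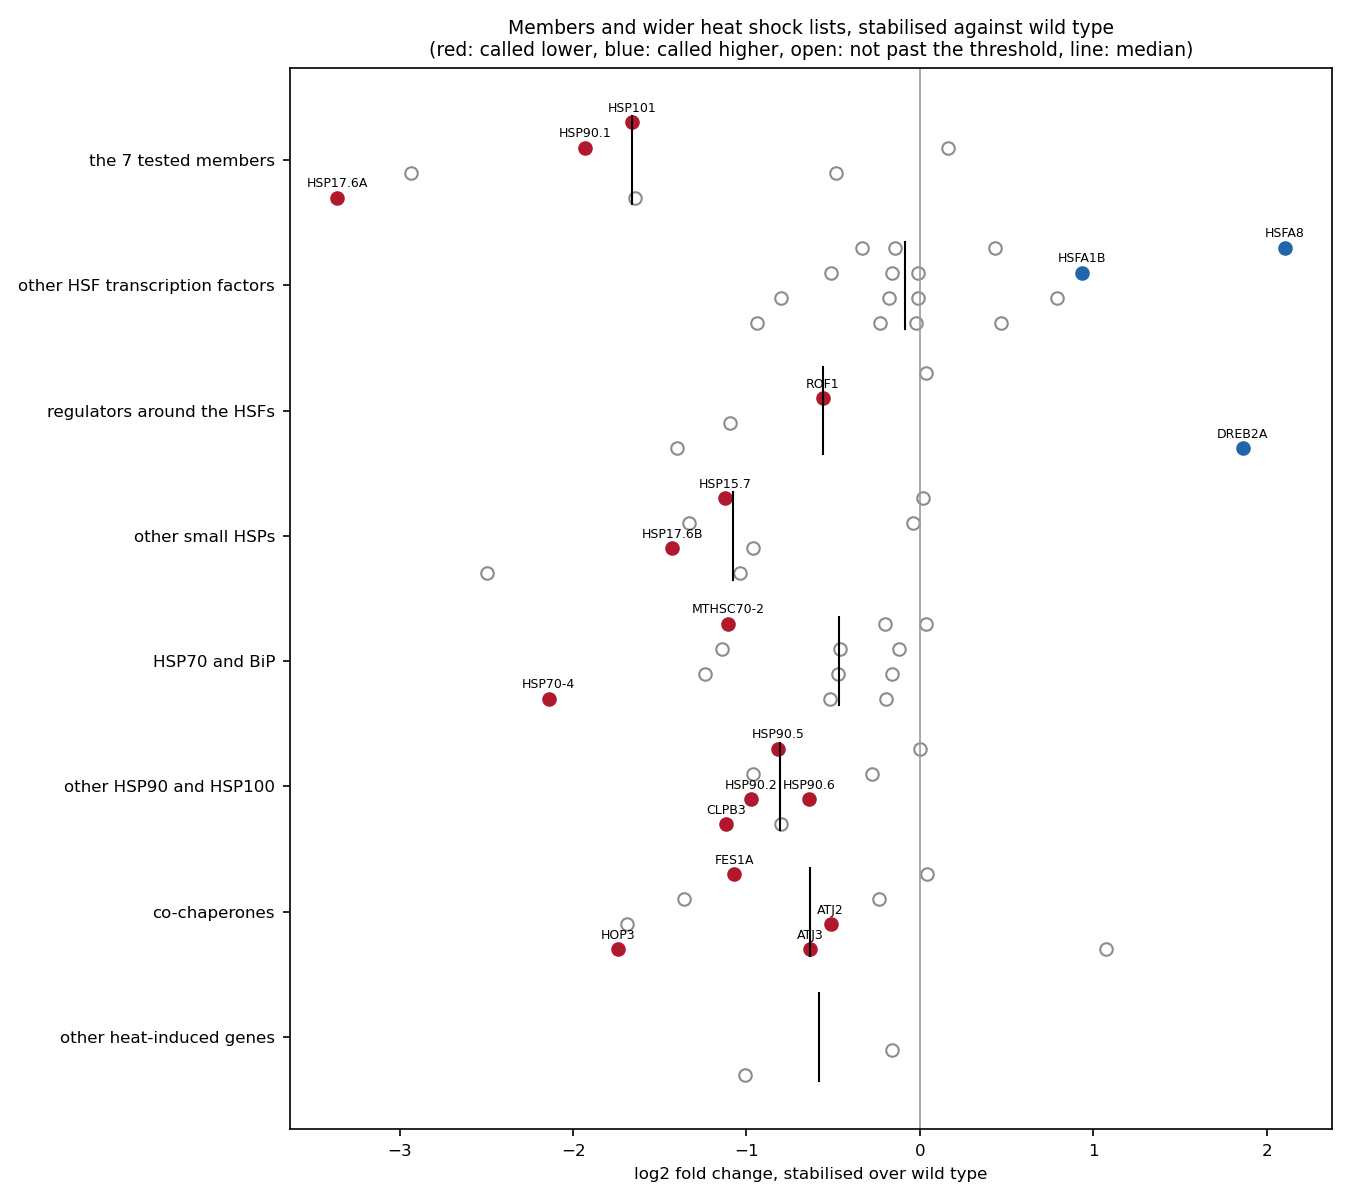
Log2 fold change in stabilised over wild type (horizontal axis) of the 7 tested loci and of 60 further heat shock genes by list; each point is a gene, red and blue points passed the threshold and the vertical line is the list's median. Called chaperones and co-chaperones lie left of 0, while HSFA8 at 2.104, DREB2A at 1.86 and HSFA1B at 0.94 lie right of it.

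Against the knockout-labelled line, 1 of the 60 wider genes fell in the stabilised line and none rose in edgeR's fit. Of all genes, 2.09% were called lower and 4.87% higher there. DESeq2 called 8 of the 60 lower and 3 higher, where it called 1433 lower and 2208 higher over all genes. The gene that fell in edgeR's fit was HSP15.7, at 2.96 ± 0.727 RPKM in the stabilised line and 7.21 ± 1.77 RPKM in the knockout-labelled line (SD, n = 3 each; log2 fold change -1.10, SE 0.23, edgeR adjusted p = 0.0360). The smallest p in the other lists belonged to HOP3 (-1.16, SE 0.29, edgeR adjusted p = 0.0503), HSFA1D (-0.51, SE 0.15), HSP70-4 (-1.44, SE 0.44), CLPB4 (-0.72, SE 0.23), DREB2A (1.11, SE 0.36) and GOLS1 (-0.23, SE 0.26). In the knockout-labelled line against the wild type none of the 60 passed edgeR's threshold, and 14 had an unadjusted p under 0.05. Such a p was found for 19.6% of all genes. DESeq2 called 1 of the 60 higher and 5 lower, where it called 784 higher and 994 lower over all genes. The smallest p in each list belonged to CLPB3 (-0.77, SE 0.16, edgeR adjusted p = 0.0553), HSP17.6C (-1.25, SE 0.27), CPHSC70-2 (-0.71, SE 0.16), HSFA1B (0.53, SE 0.13), ROF1 (-0.38, SE 0.13), ATJ2 (-0.34, SE 0.13) and GOLS1 (-0.78, SE 0.26).

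Library by library, the mean of the 7 loci, each centred on its own mean log2 CPM over the 9 libraries, was -0.68, -0.85 and -0.89 in the stabilised line, 0.55, -0.18 and -0.05 in knockout-labelled leaves and 1.40, -0.07 and 0.77 in the wild type. The stabilised libraries were the lowest 3, and wild type replicate 2 lay among the knockout-labelled libraries. By Pearson correlation with this mean over the 9 libraries, the most alike of 16725 genes outside the lists were AT4G32600 (r = 0.977), AT3G12050 (r = 0.973), EMB2204 (r = 0.966), AT2G30700 (r = 0.966), AT1G64500 (r = 0.965) and SSL9 (r = 0.964), picked as the highest of many and given as a description. The widest range of these was that of AT1G64500, with 92.6, 56.3 and 64.7 RPKM in stabilised libraries, 179, 148 and 135 RPKM in knockout-labelled libraries and 240, 131 and 176 RPKM in wild type libraries.

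**Figure D4:**
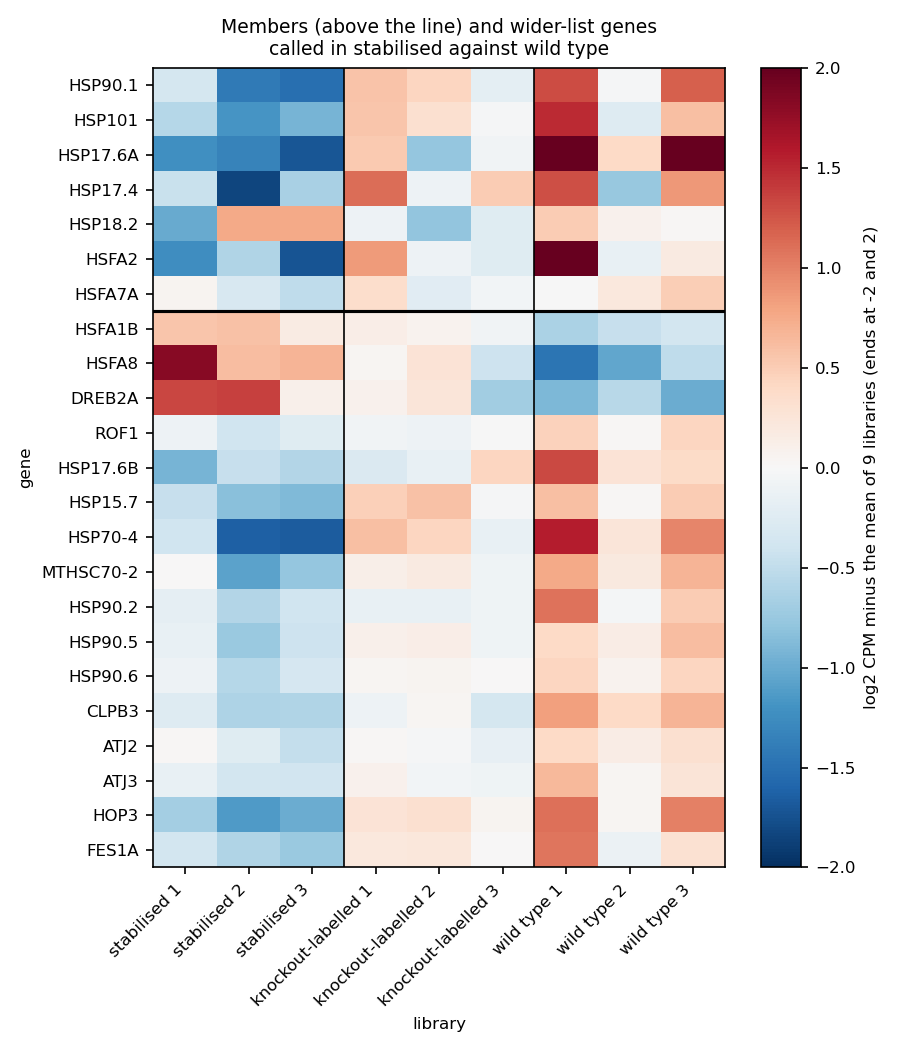
Log2 CPM of each gene (rows) minus its mean over the 9 libraries (columns, stabilised, knockout-labelled and wild type), on a colour scale that ends at -2 and 2; the 7 tested loci are above the line and the 16 wider-list genes called in stabilised against wild type below it. The 7 loci average -0.68 to -0.89 in stabilised libraries, and among the wild type libraries replicate 2 is the palest, at -0.07.

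HSFA7A stood apart from the other loci in where its reads lay, a pattern looked at after its values were seen. It had 632 reads over 507 bases of intron and 1564 reads over 1159 bases of exon, an intron density 0.924 times that of its exons. The same ratio was 0.120 for HSP90.1, 0.180 for HSP101 and 0.0329 for HSFA2, and its median was 0.0443 over 13763 genes with at least 500 exon reads and 100 intron bases. Only 1 of the 1564 exon reads of HSFA7A crossed an exon junction, or 0.0639%, against 16.1% for HSP90.1, 31.9% for HSP101 and 18.6% for HSFA2. Of the 13763 genes, 1.38% had a ratio as high as that of HSFA7A and 0.269% a junction share as low. The ratio was 1.03, 0.769 and 0.688 in stabilised libraries, 0.797, 0.813 and 0.950 in knockout-labelled libraries and 1.09, 1.04 and 0.978 in wild type libraries. The stabilised range overlapped with both others, while every knockout-labelled value lay below every wild type value. A group difference in this ratio was not tested. No source used here says if reads were counted by strand, so HSFA7A and any transcript on the opposite strand cannot be told apart.

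**Figure D5:**
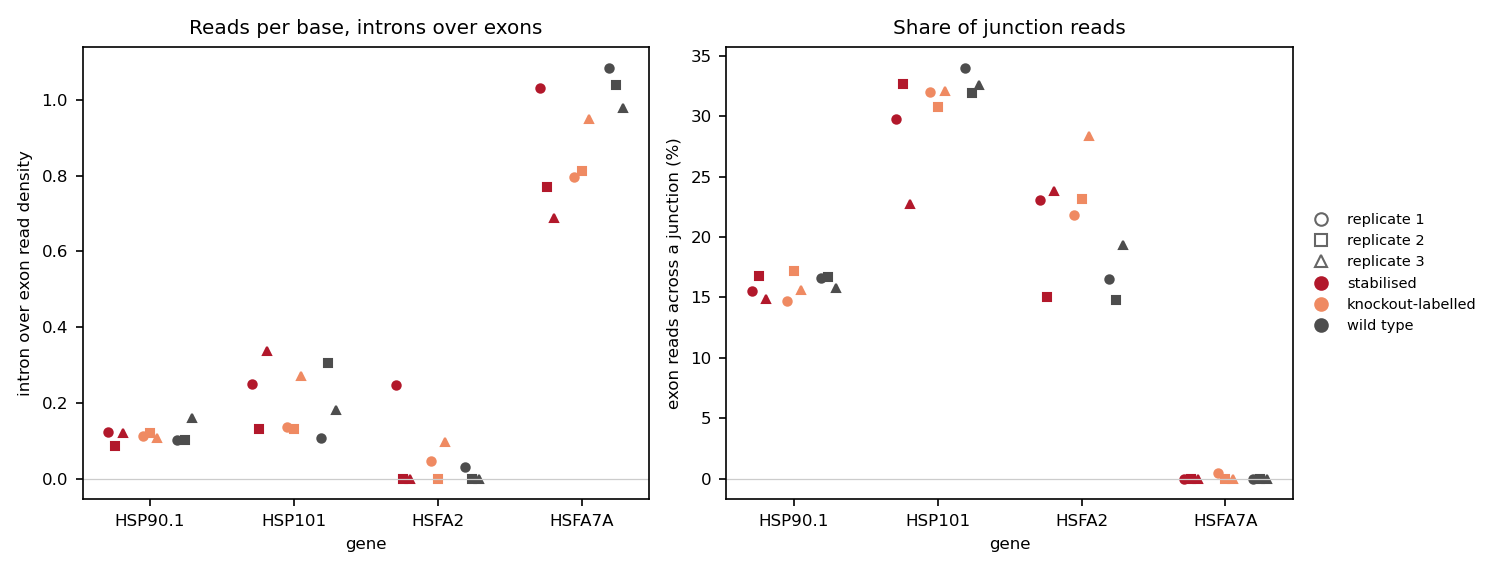
Left, intron read density over exon read density, and right, percent of exon reads that cross an exon junction, for the 4 intron-containing loci with at least 20 reads in every library; points are libraries, coloured by group and shaped by replicate number. HSFA7A lies between 0.688 and 1.09 on the left and at or near 0 on the right in all 9 libraries.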

How the data were processed

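RNA from leaves was sequenced in 9 libraries, with an RNeasy plant mini kit and a NEB Next Ultra kit per the labels' protocols. The authors deposited counts of total exon, unique exon, intron and exon-exon reads per gene, per the file headers, as whole numbers with no normalization. The authors also deposited RPKM values, which equalled exon reads per kilobase divided by 1 constant per library. TAIR10 is the build that the submitters' processing notes name; aligner, counter and use of strand: not given in the sources used here. Starts were turned into 1-based positions, and 32520 of 32548 loci found in RefSeq's TAIR10.1 annotation had the same start and end, so upstream sequences were read from that genome. No RefSeq protein or promoter tables were used here.

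Total exon reads were tested with edgeR 4.0.16 (glmQLFit and glmQLFTest, TMM scaling) in R 4.3.3, with all 9 libraries in 1 fit and no covariate. The filterByExpr settings were min.count 10, min.total.count 15 and min.prop 0.7, and 19409 genes passed. Calls used adjusted p 0.05 (Benjamini-Hochberg, all tested genes). The SE is the size of the log2 fold change over the root of F. Libraries were taken not to overlap on TMM-scaled log2 CPM (prior count 2). The fit was checked on simulated data, with 100 genes changed 2-fold and 100 changed 4-fold per comparison. It recovered 45% to 51% of the 2-fold and 76% to 86% of the 4-fold changes, with 6 to 8 false calls. A locus that did not pass the threshold is therefore not shown to be unchanged. DESeq2 1.42.0 and the other settings in the closing section were alternatives. Python 3.11.15 with pandas 2.3.3 and matplotlib 3.10.9 served for the rest.

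The members, the wider lists and the tests were chosen with earlier results of these data known. The text names all 10 loci, up to 4 called genes of each wider list with the smallest p (otherwise the 1 with the smallest p) and the 6 genes most alike. HSP17.8, BAG6 and the single leaf mesophyll genes were named after their values were seen. Depth is given in the results; intervals and floors cover counting error only.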

Additional observations from a re-analysis of the deposited data

How the results depend on the processing

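Over 16 alternatives, 299 of 333 fold changes of the 7 loci kept their direction and their side of the threshold. Of the rest, 17 lost a call, 9 gained one and 8 changed sign. Most of the 333 belong to loci not called in the main fit. All 17 lost calls were in stabilised against wild type: HSP101 lost its call in 8 of the 16 alternatives, HSP90.1 in 7 and HSP17.6A in 2. DESeq2 called 1778 genes in knockout-labelled against wild type, 3418 in stabilised against wild type and 3641 in stabilised against knockout-labelled, with 1 of the 7 loci in the first, 2 in the third and 33 wider heat shock genes in the second; it gave HSFA2 no adjusted p. With only the 2 groups compared in the fit, 615 genes, 1 locus and 3 wider genes were called in stabilised against wild type, and 703 genes and 1 locus in stabilised against knockout-labelled. The labels do not say that a replicate number marks a shared batch, and correlations of same-numbered deviations over all genes ran from -0.439 to 0.516, so the numbers were not used to pair samples, although replicate 2 had the lowest intron share of reads and the lowest HSP17.4 level in each group. With the number as a block, 134 genes were called in knockout-labelled against wild type, and HSP17.4 was called lower in stabilised against wild type (SE 0.313 in place of 0.630, adjusted p = 0.0363) and, as the 1 locus called, against knockout-labelled (adjusted p = 0.0408). Leaving out 1 library at a time gave 10 to 546 genes in knockout-labelled against wild type, 584 to 3786 genes, 0 to 3 loci and 4 to 26 wider genes in stabilised against wild type, and 3 to 5241 genes and 0 to 2 loci in stabilised against knockout-labelled. The 2 loci called in that last comparison, without stabilised replicate 1, went opposite ways. HSP90.1 was lower there (log2 fold change -1.764, edgeR adjusted p = 0.0230) and HSP18.2 higher (1.168, edgeR adjusted p = 0.0357). In knockout-labelled against wild type, the log2 fold change of HSP17.4 turned to 0.002 with library totals alone and to 0.033 with the replicate block, and ran from -0.530 to 0.337 when 1 library was left out; likewise HSP101 ran from -0.823 to 0.069 and HSFA2 from -1.978 to 0.239. HSP18.2 in stabilised against wild type ran from -0.099 to 0.562. The cause of these changes was not tested. The counts over wider genes and the window before the coding start were alternatives chosen after seeing the data; in that window 10 loci held a 2-unit element in place of 5. Depth limits HSP17.6II, HSP21 and HSP22, which had 74, 1 and 4 reads over all libraries.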
